A study of Mus musculus with 60 samples.

Results

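CL6G45 and CL6G26 are sublines of P19CL6, itself a subclone of the mouse embryonal carcinoma line P19, and here their transcript levels were set directly against each other. The arrays were taken by their titles alone, 10 of CL6G45 and 10 of CL6G26 out of 60 in the series, which makes 5 biological replicates per subline on each of 2 Affymetrix array types, MOE430A and MOE430B. Both sublines carry the same further labels: undifferentiated cells of a C3H male embryo source, kept in alpha-MEM plus fetal calf serum, with no allele, agent or treatment that sets them apart. The labels do not say how the sublines were derived, each is a single line, and nothing states that the replicates came from separate cultures, so each p-value reflects only how far these particular samples scatter, and that scatter may be partly technical. No P19CL6, CL6G36, CL6G52 or P19 array entered the comparison, and these strains serve only to place the 2 sublines.

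Embryonal carcinoma cells are pluripotent cells derived from teratocarcinomas. They express the core pluripotency factors and, like the epiblast of the early embryo, respond to Nodal, Wnt and FGF signals that induce primitive streak, mesoderm and endoderm genes. P19CL6 is known for forming beating cardiac muscle. As in other cells, unfolded protein in the endoplasmic reticulum (ER) and shortage of amino acids switch on 2 linked programmes: the unfolded protein response, run by ATF6, XBP1 and PERK, and the integrated stress response, in which ATF4 and CHOP drive amino acid and redox genes.

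On MOE430A the median signal ran from 35.7 to 50.1 on CL6G45 arrays and from 35.3 to 53.4 on CL6G26 arrays. On MOE430B it ran from 12 to 15.6 on CL6G45 arrays and from 10.6 to 14 on CL6G26 arrays. Precision is limited by how many arrays there are. The first principal component separated the sublines on both types, with 36.1% of the variance on MOE430A and 17.2% on MOE430B. On the second component of MOE430A, CL6G45 replicate 4 and CL6G26 replicate 3 lay apart from the other 8 arrays, so list counts that moved by over 1.5 times without them are also given that way, with genes tested where 4 of the 8 arrays left were above the floor. The ratio of 3′ to 5′ Gapdh signal, a measure of RNA and labelling quality, was 0.795 to 0.875 on CL6G45 arrays and 0.829 to 0.883 on CL6G26 arrays of MOE430A, and on MOE430B 0.774 to 0.831 on CL6G45 arrays and 0.83 to 0.876 on CL6G26 arrays, where the ranges only just meet. Its part in the results was not tested.

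Fst, Snx7 and Arhgap32 were taken as markers of the contrast. Fst encodes follistatin, a secreted protein that binds and blocks activins. Its level, the log2 of the normalized signal, was 7.16, 7.43, 7.05, 7.43 and 7.0 in the CL6G45 replicates, against 9.26, 9.26, 9.27, 9.10 and 9.15 in the CL6G26 replicates. The groups lay far apart, and Fst was 3.98-fold lower in CL6G45, a log2 difference of -1.99 ± 0.09 (SE of the fit, n = 5 per subline; limma adjusted p = 5.17e-09). A second Fst probe set, on MOE430B, gave -2.17 (limma adjusted p = 3.96e-07). Snx7, a sorting nexin of endosomal membranes, was 6.55, 6.21, 6.52, 6.28 and 6.24 in CL6G45, against 8.45, 8.39, 8.19, 8.41 and 8.69 in CL6G26, a difference of -2.07 ± 0.11 (limma adjusted p = 1.45e-08). Arhgap32, a GTPase-activating protein, ran the other way, at 7.99, 7.80, 7.94, 8.13 and 8.13 in CL6G45, against 5.98, 6.22, 5.69, 6.26 and 6.35 in CL6G26. That is a difference of 1.90 ± 0.13 (limma adjusted p = 1.59e-07), and its other probe set gave 0.92. These genes were picked with the results known, so their values describe the contrast.

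Other members of the Snx7 family differed by less. Of 27 sorting nexin and retromer genes tested, 5 rose and 2 fell at a limma adjusted p below 0.05, against 10.9% higher and 9.10% lower among all genes tested, so the share that fell was no larger than in the background. Apart from Snx7 these differences lay between -0.28 (Snx18) and 0.31 (Vps35, a retromer subunit). The number that rose was 0 with arrays scaled to equal medians, 1 with the deposited scaling and 3 without the pair of arrays that lay apart. In the other strains Fst was high in P19CL6 (9.99 ± 0.40, SD, n = 5) and low in CL6G36 (7.0 ± 0.34), Snx7 was highest in CL6G26, and Arhgap32 stood at 6.28 ± 0.14 in P19CL6 and 6.34 ± 0.12 in CL6G36.

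**Figure D1:**
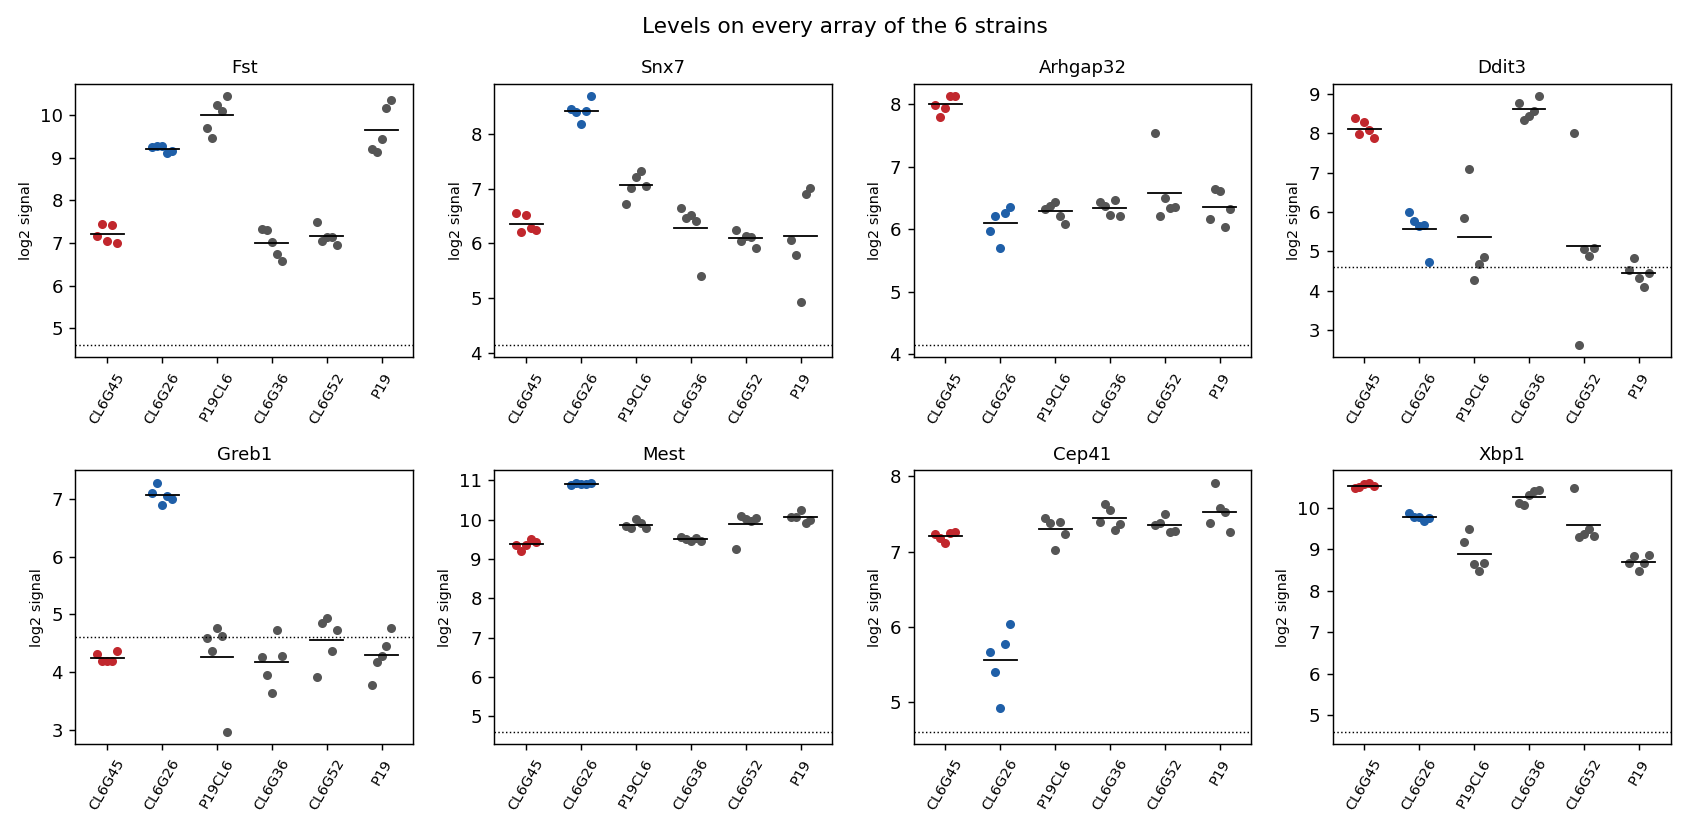
Levels (log2 signal) of 8 genes on each of the 5 arrays of the 6 strains, with the mean as a bar and the detection floor as a dotted line; CL6G45 is red and CL6G26 blue. Arhgap32 is high in all 5 CL6G45 arrays, Snx7, Greb1 and Mest are high and Cep41 low in CL6G26, and CL6G52 replicate 1 stands apart from its group for Arhgap32 (7.54), Ddit3 (8.01) and Xbp1 (10.47).

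Of 11682 genes tested across both array types, 142 (1.22%) were called, which required both a 2-fold change and a limma adjusted p below 0.05. 75 were higher in CL6G45 (0.642%) and 67 lower (0.574%). By adjusted p alone 1278 genes were higher (10.9%) and 1063 lower (9.10%), a split that moved to 869 higher and 1528 lower when arrays were scaled to equal medians. The arrays of the sublines did not overlap for 128 of the called genes and for 1869 of all genes tested (16%). The median difference over all genes was 0.02. The detection floor is a level of 4.61 on MOE430A and 4.15 on MOE430B, below which a signal was treated as not detected. Of the called genes 71 lay above the detection floor on all 10 arrays, and 26 lay above it on all 5 arrays of one subline and on none of the other by the probe set used, 12 of them detected in CL6G45 and 14 in CL6G26. For 7 of the 26 another probe set rose above the floor on at least 1 array of the low subline, and the remaining 19 were under it there by every probe set that names the gene.

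**Figure D2:**
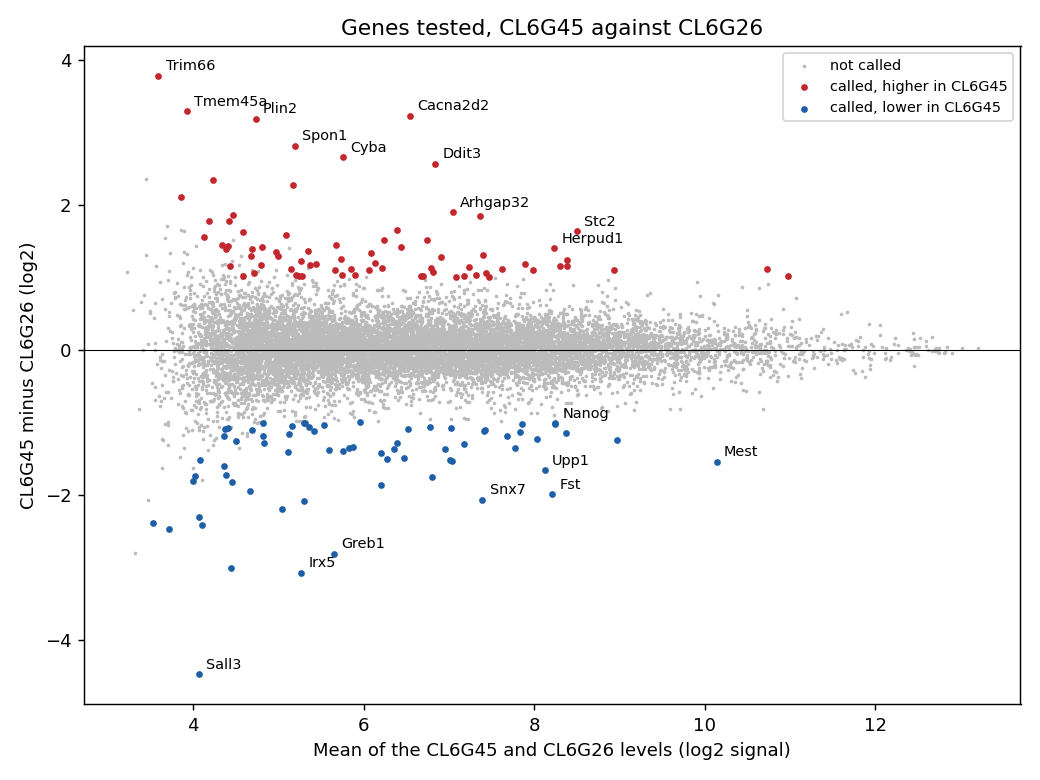
Difference between CL6G45 and CL6G26 (log2) against the mean of the levels in both sublines for 11682 genes tested; 75 called higher in CL6G45 are red, 67 called lower are blue. Of the called genes 71 were above the floor on all 10 arrays.

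Genes of the ER and amino acid stress programmes rose together in CL6G45. Of 30 genes of the unfolded protein response tested, 23 rose in CL6G45 and 0 fell, against 10.9% and 9.10% of all genes, with a median difference of 0.49 against 0.02. Of 33 genes of the integrated stress response and amino acid supply, 27 rose and 0 fell, with a median of 0.46. The lists share members such as Ddit3 and Trib3. With the deposited scaling, under which only 3.15% of all genes passed as higher, the counts were 10 and 11 with 0 falling, and without the pair of arrays that lay apart they were 23 and 26.

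Ddit3, which encodes the transcription factor CHOP, was 8.39, 7.97, 8.29, 8.07 and 7.88 in CL6G45, against 6.0, 5.77, 5.64, 5.66 and 4.72 in CL6G26. The difference of 2.56 ± 0.19 (limma adjusted p = 4.29e-07) was the largest among genes whose probe set used was above the floor on all 10 arrays. Among other factors of the programme, Cebpb, a CHOP partner, rose by 1.30 ± 0.10, and Trib3, a pseudokinase that restrains ATF4 output, by 1.10 ± 0.09. Xbp1, Atf6 and Atf4, named here after their values were seen, rose less. Xbp1 was 10.48, 10.49, 10.56, 10.60 and 10.51 in CL6G45, against 9.88, 9.78, 9.78, 9.68 and 9.76 in CL6G26, a difference of 0.75 ± 0.05 (limma adjusted p = 1.37e-07). Atf4 differed by 0.42 ± 0.06 (limma adjusted p = 0.000126) and Atf6 by 0.44 ± 0.13 (limma adjusted p = 0.0213), and the arrays of the sublines overlapped for Atf6. Neither passed with the deposited scaling. Atf3 differed by 0.46 without passing (limma adjusted p = 0.058).

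Effectors of ER-associated degradation and oxidative folding were among the called genes. Derl3, a channel component of ER-associated degradation, was 7.32, 7.58, 7.37, 7.36 and 7.87 in CL6G45, against 5.97, 5.65, 6.47, 6.04 and 5.80 in CL6G26, a difference of 1.51 ± 0.15 (limma adjusted p = 5.16e-06). Herpud1, which helps assemble the same machinery, rose by 1.40 ± 0.15 and Ero1b, an ER oxidase, by 1.18 ± 0.15. Hspa5, the ER chaperone BiP, was 12.09, 12.05, 12.12, 12.10 and 12.14 in CL6G45, against 11.82, 11.73, 11.75, 11.68 and 11.72 in CL6G26, and rose by 0.36 ± 0.04 (limma adjusted p = 1.02e-05; it did not pass with the deposited scaling). Hsp90b1 (0.18), Pdia3 (0.04) and Canx (0.06), all folding factors, did not pass. Bhlha15, a transcription factor of secretory cells named after its value was seen, was also called, at 5.89 ± 0.25 in CL6G45 and 4.30 ± 0.41 in CL6G26 (SD, n = 5), a difference that came to 1.23 with signals raised to the floor.

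The ER stress response element, which is CCAAT, 9 bases of any kind and CCACG, is the site through which ATF6 and XBP1 are known to act, and it was searched on both strands of RefSeq promoter windows of 300 bases (250 before to 50 after the start, GRCm38.p6). Of 26 tested genes of the list with a window, 10 held it, against 37 of 27025 genes in the table (0.137%). The list was drawn from known targets, so this is a description of its members. The matched elements are shown to let the fixed ends and the free spacer be compared, each read on the strand that carries CCAAT, with the fixed ends in capitals.
Hspa5: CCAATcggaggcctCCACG
Hsp90b1: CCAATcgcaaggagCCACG
Hsp90b1, second match: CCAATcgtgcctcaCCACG
Dnajc3: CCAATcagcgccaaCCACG
Pdia6: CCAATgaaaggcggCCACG
Calr: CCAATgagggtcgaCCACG
Canx: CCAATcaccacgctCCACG
Derl3: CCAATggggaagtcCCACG
Syvn1: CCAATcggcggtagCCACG
Creld2: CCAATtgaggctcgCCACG
Ero1b: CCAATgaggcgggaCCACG
Of these genes, the 8 that rose were Derl3, Ero1b, Creld2 (0.80), Dnajc3 (0.80), Syvn1 (0.69), Calr (0.39), Hspa5 and Pdia6 (0.27), and Canx and Hsp90b1 did not pass. Outside the list 6 tested genes held the element, and 0 of them rose. Acacb (-0.89, limma adjusted p = 0.0184) and Pan2 (-0.50, limma adjusted p = 0.0147) fell, and Acacb, which lay under the floor on all 5 CL6G45 arrays, differed by -0.39 with signals raised to the floor. The windows of Derl3, which rose most of the holders, and of BiP are given whole, with the match in capitals; in Derl3 the element reads on the reverse strand, so its capitals show the reverse complement.
Derl3 promoter window, chr10:75893148-75893447, plus strand: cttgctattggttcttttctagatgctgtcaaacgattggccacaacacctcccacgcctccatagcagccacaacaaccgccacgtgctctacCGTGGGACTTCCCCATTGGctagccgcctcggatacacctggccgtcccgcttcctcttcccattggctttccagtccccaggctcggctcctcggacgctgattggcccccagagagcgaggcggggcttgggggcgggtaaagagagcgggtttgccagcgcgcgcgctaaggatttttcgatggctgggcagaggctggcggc
Hspa5 promoter window, chr2:34771840-34772139, plus strand: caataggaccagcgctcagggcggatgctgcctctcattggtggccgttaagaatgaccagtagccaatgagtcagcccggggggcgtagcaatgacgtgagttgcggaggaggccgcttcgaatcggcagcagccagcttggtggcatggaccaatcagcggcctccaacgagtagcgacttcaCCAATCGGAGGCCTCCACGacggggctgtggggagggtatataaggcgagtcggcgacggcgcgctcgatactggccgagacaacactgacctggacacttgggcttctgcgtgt

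The integrated stress response list holds amino acid and one-carbon genes beside stress regulators. Stc2, a secreted glycoprotein induced by ER stress, was 9.22, 9.46, 9.09, 9.24 and 9.57 in CL6G45, against 7.63, 7.63, 7.93, 7.57 and 7.67 in CL6G26, a difference of 1.63 ± 0.09 (limma adjusted p = 5.25e-08) that 2 further probe sets shared at 0.99 and 1.08. Aldh1l2, a mitochondrial folate enzyme, rose by 1.51 ± 0.13 (limma adjusted p = 4e-06). Psat1, of serine synthesis, and Slc38a2, a neutral amino acid transporter, did not pass, at 0.09 and 0.19. The ATF4 element TTGCATCA lay in the windows of 5 of 27 tested genes of this list, against 279 of 27025 in the table (1.03%). Among these genes it lay in 2 of 21 that rose (9.52%) and in 3 of 6 that did not pass (50%). The list was chosen for this response, so this too is a description of its members. Slc1a4 (0.82) and Vldlr (0.60) were the holders that rose, and Atf3, Chac1 (0.29) and Slc7a11 (0.23) were the holders that did not pass. Of 19 aminoacyl-tRNA synthetases, which charge transfer RNAs and are ATF4 targets in part, 9 rose and 1 fell, against 10.9% and 9.10% of all genes. These counts became 3 and 3 with arrays scaled to equal medians and 0 and 1 with the deposited scaling. Isoleucyl (Iars, 0.44), glycyl (Gars, 0.42), bifunctional glutamyl-prolyl (Eprs, 0.41) and seryl (Sars, 0.38) synthetases were the largest risers, and Farsa, a subunit of the phenylalanyl enzyme, fell by 0.46.

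**Figure D3:**
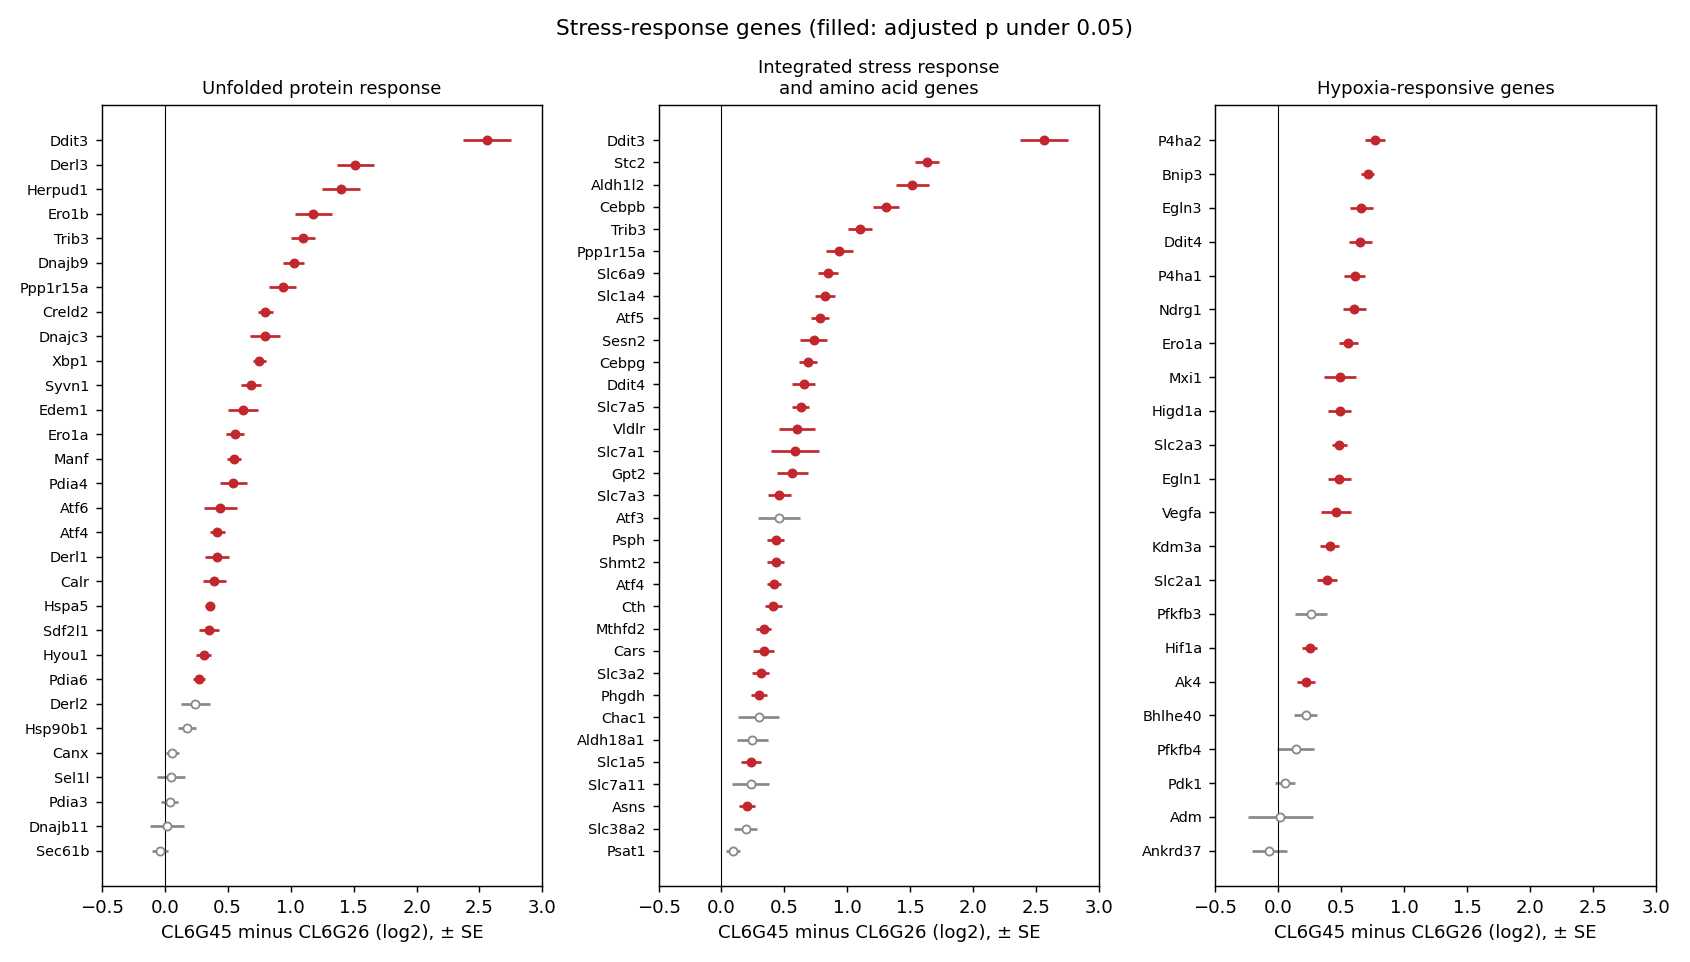
Difference between CL6G45 and CL6G26 (log2, bars are the SE of the fit, n = 5 per subline) for the tested members of 3 lists; filled points passed an adjusted p of 0.05. Most members lie right of 0 and 0 members passed on the left.

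Hypoxia-responsive and glycolytic genes rose as well. The 2 lists share members, among them Slc2a1, Slc2a3 and Pdk1, and Ddit4 of the hypoxia list is also in the integrated stress list. Of 22 genes known to respond to low oxygen, 16 rose and 0 fell, with a median of 0.47, and 2 rose under the deposited scaling, where the median was 0.34. Bnip3, a mitophagy receptor, was 11.42, 11.61, 11.39, 11.33 and 11.40 in CL6G45, against 10.76, 10.79, 10.65, 10.70 and 10.69 in CL6G26, a difference of 0.71 ± 0.05 (limma adjusted p = 4.29e-07). P4ha2 (0.77) and P4ha1 (0.61), collagen prolyl hydroxylases, Egln3 (0.66), the oxygen sensor PHD3, and Ddit4 (0.65), an inhibitor of mTORC1, were the other leading members, and their arrays did not overlap between the sublines. Pdk1 (0.05), Adm (0.02) and Ankrd37 (-0.07), commonly used hypoxia genes, did not pass. Of 21 glycolysis genes 11 rose and 0 fell, and 5 and 3 rose with equal medians and with the deposited scaling. Both lists stand beside 10.9% of all genes tested that rose and 9.10% that fell. Aldoc, the brain-type aldolase, was the member called, at 8.96, 8.71, 8.84, 9.11 and 8.81 in CL6G45, against 7.82, 7.67, 7.89, 7.67 and 7.59 in CL6G26 (1.16 ± 0.08, limma adjusted p = 3.76e-07). Eno2 (0.88), Pfkp (0.73) and the glucose transporters Slc2a3 (0.49) and Slc2a1 (0.39) followed, whereas Hk2 (0.09), Pkm (0.04) and Pfkm (0.07) did not pass.

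Genes of lipid storage and desaturation rose in part. Of 24 genes of fatty acid synthesis, droplets and lipolysis, 10 rose and 1 fell, or 3 and 1 with the deposited scaling. The shares over all genes tested were 10.9% and 9.10%. Plin2, the coat protein of lipid droplets, was 6.73, 6.01, 6.19, 6.34 and 6.39 in CL6G45 and under the floor of 4.61 on all 5 CL6G26 arrays. It was at least 3.29-fold higher in CL6G45 (limma adjusted p = 1.75e-05), with P19CL6 at 6.39, so CL6G26 was the low strain. Scd1, a stearoyl-CoA desaturase, was 9.48, 9.53, 9.47, 9.46 and 9.48 in CL6G45, against 8.41, 8.18, 8.48, 8.36 and 8.48 in CL6G26 (1.10 ± 0.06, limma adjusted p = 5.25e-08). Lpl, lipoprotein lipase, rose by 0.91, Fads1, a fatty acid desaturase, by 0.66 and Plin3, another droplet coat protein, by 0.45. Fasn, fatty acid synthase, was the member that fell, by 0.34.

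Genes lower in CL6G45 included developmental signals and transcription factors of the primitive streak. Of 9 primitive streak and mesoderm genes tested, out of 17 on the array, 0 rose and 3 fell, with a median of -0.51. Over all genes tested 10.9% rose and 9.10% fell. Fgf8 also counts among the falls of the FGF and primed epiblast lists, and Eomes among those of the trophoblast list. Fgf8, a secreted growth factor of the streak, was 6.27, 6.69, 6.11, 6.27 and 5.99 in CL6G45, against 7.98, 7.98, 7.82, 7.62 and 7.59 in CL6G26, a difference of -1.53 ± 0.12 (limma adjusted p = 9.61e-07). Mixl1, a homeobox factor of mesendoderm, was 5.02, 5.06, 5.24, 5.15 and 4.82 in CL6G45, against 6.57, 6.51, 6.38, 6.43 and 6.38 in CL6G26 (-1.40 ± 0.11, limma adjusted p = 7.36e-07). Eomes, a T-box factor of mesendoderm, fell by 0.74. Gsc (0.05), Tbx6 (0.47) and Mesp1 (-0.47) did not pass, and T had no probe set naming it alone.

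Nodal signalling genes went both ways. Of 18 tested, 4 fell and 2 rose, and the rises, of Skil (0.29) and Smad4 (0.17), did not pass with arrays scaled to equal medians or with the deposited scaling, where Smad4 stood at -0.01. Without the pair of arrays that lay apart 4 rose and 4 fell. Over all genes tested 10.9% rose and 9.10% fell, so rises in the main fit were about as frequent as over all genes. Nodal itself was 9.16, 9.48, 9.27, 9.34 and 9.27 in CL6G45, against 10.10, 10.30, 10.00, 10.05 and 10.16 in CL6G26, a difference of -0.82 ± 0.07 (limma adjusted p = 1.29e-06), and a second probe set gave -1.11. Its co-receptor Tdgf1 (Cripto) fell by 0.62 and Pcsk6, a convertase that processes Nodal, by 0.78, so that the ligand, its co-receptor, its processing enzyme and the activin antagonist Fst were all lower. Lefty1, a Nodal antagonist and target (0.16), Smad2 (0.15) and Foxh1 (0.05) did not pass.

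Of 15 Wnt ligands and targets 4 fell and 1 rose, or 3 and 0 with the deposited scaling. Over all genes tested 9.10% fell and 10.9% rose. Wnt11 was 6.14, 6.52, 6.13, 6.15 and 6.38 in CL6G45, against 7.65, 7.59, 7.78, 7.76 and 7.42 in CL6G26 (-1.38 ± 0.10, limma adjusted p = 4.13e-07). Axin2, a feedback target of β-catenin, was 6.33, 6.35, 6.76, 6.42 and 6.57 in CL6G45, against 7.51, 7.61, 7.50, 7.61 and 7.61 in CL6G26 (-1.08 ± 0.09, limma adjusted p = 1.12e-06). Wnt5b lay under the floor on all CL6G45 arrays and was at least 1.22-fold lower (limma adjusted p = 0.00307; limma adjusted p = 0.155 with signals raised to the floor), and Myc fell by 0.35. Wnt7a, a ligand outside that list, was 5.17, 5.46, 5.33, 5.24 and 5.14 in CL6G45, against 7.26, 7.13, 7.14, 6.99 and 7.14 in CL6G26, a difference of -1.86 ± 0.10 (limma adjusted p = 2.18e-08), although its other probe set gave -0.39 (limma adjusted p = 0.587). Sfrp1, a secreted Wnt antagonist, rose by 0.74, or 0.57 with signals raised to the floor. Ccnd1 (-0.10), Lef1 (0.53) and Lgr5 (0.43) did not pass.

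FGF pathway genes went both ways, with 4 of 19 higher and 4 lower, or 2 and 2 with the deposited scaling. The shares over all genes tested were 10.9% higher and 9.10% lower. Besides Fgf8, Etv4, an effector of FGF signalling, fell by 0.57, whereas Dusp4, a phosphatase of MAP kinases, rose by 0.89, the receptor Fgfr2 by 0.79 and the ligand Fgf15 by 0.53. Fgf4 (-0.16), Fgf5 (-0.22) and Dusp6 (-0.03) did not pass. Of the apelin system, which guides early mesoderm, 2 of 3 genes fell, against 9.10% of all genes tested. Aplnr entered the test through its CL6G26 arrays alone, and a stricter filter, which does not test it, left 1 fall. The receptor Aplnr was under the floor on all 5 CL6G45 arrays and above it on all 5 CL6G26 arrays, at least 1.53-fold lower (limma adjusted p = 0.00267). A second Aplnr probe set was above the floor on 0 arrays of either subline, with means of 3.28 in CL6G45 and 4.01 in CL6G26. The ligand Apela was 5.78, 5.87, 5.73, 5.63 and 5.39 in CL6G45, against 6.58, 6.83, 6.21, 6.95 and 6.78 in CL6G26, and the ligand Apln differed by -0.02.

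Several homeobox and zinc finger factors lay under the floor in CL6G45 and above it in CL6G26 by the probe set used. Sall3, a spalt-like zinc finger factor, lay at 1.68, 1.63, 1.66, 1.76 and 2.42 in CL6G45, all under the floor, against 6.45, 6.14, 6.37, 6.04 and 6.54 in CL6G26, which makes it at least 3.24-fold lower (limma adjusted p = 1.05e-07). A second Sall3 probe set was above the floor on 1 array of each subline. Irx5, an Iroquois homeobox factor, was at least 4.59-fold lower, with 7.0, 6.56, 6.95, 6.73 and 6.81 in CL6G26. Meis2, a TALE homeobox factor, was at least 1.26-fold lower by one probe set, while another was above the floor on 3 CL6G45 and 5 CL6G26 arrays and differed by -1.02 (limma adjusted p = 0.0568). Irx3 was likewise under the floor on every CL6G45 array and above it on every CL6G26 array (limma adjusted p = 0.0174). With signals raised to the floor neither gene passed, at -0.34 for Meis2 and -0.26 for Irx3. In the same list of 15 factors 8 rose and 4 fell, the rises being small apart from Meis3 at 1.01, which was 0.43 and did not pass with signals raised to the floor. The rises numbered 4 with equal medians and 0 with the deposited scaling, and the falls 4 and 3. Over all genes tested 10.9% rose and 9.10% fell in the main fit. Without the pair of arrays that lay apart, 6 rose and 4 fell with the filter at 4 of the 8 arrays left, and 6 rose and 0 fell with it at 5. With a stricter filter, which tests fewer genes, 0 fell as well. The 4 that fell, Sall3, Irx5, Meis2 and Irx3, entered the test through their CL6G26 arrays alone. A filter that needs more arrays drops those probe sets, so its counts cannot show whether these genes fell. With signals raised to the floor, Sall3 (-1.69) and Irx5 (-2.20) passed, unlike Meis2 and Irx3. Sall1 (0.18), Meis1 (0.20) and Cited2 (-0.13) did not pass. Sall3 was at 7.37 in P19CL6 and therefore low in CL6G45, whereas Irx5, at 4.87 in P19CL6, was high in CL6G26.

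**Figure D4:**
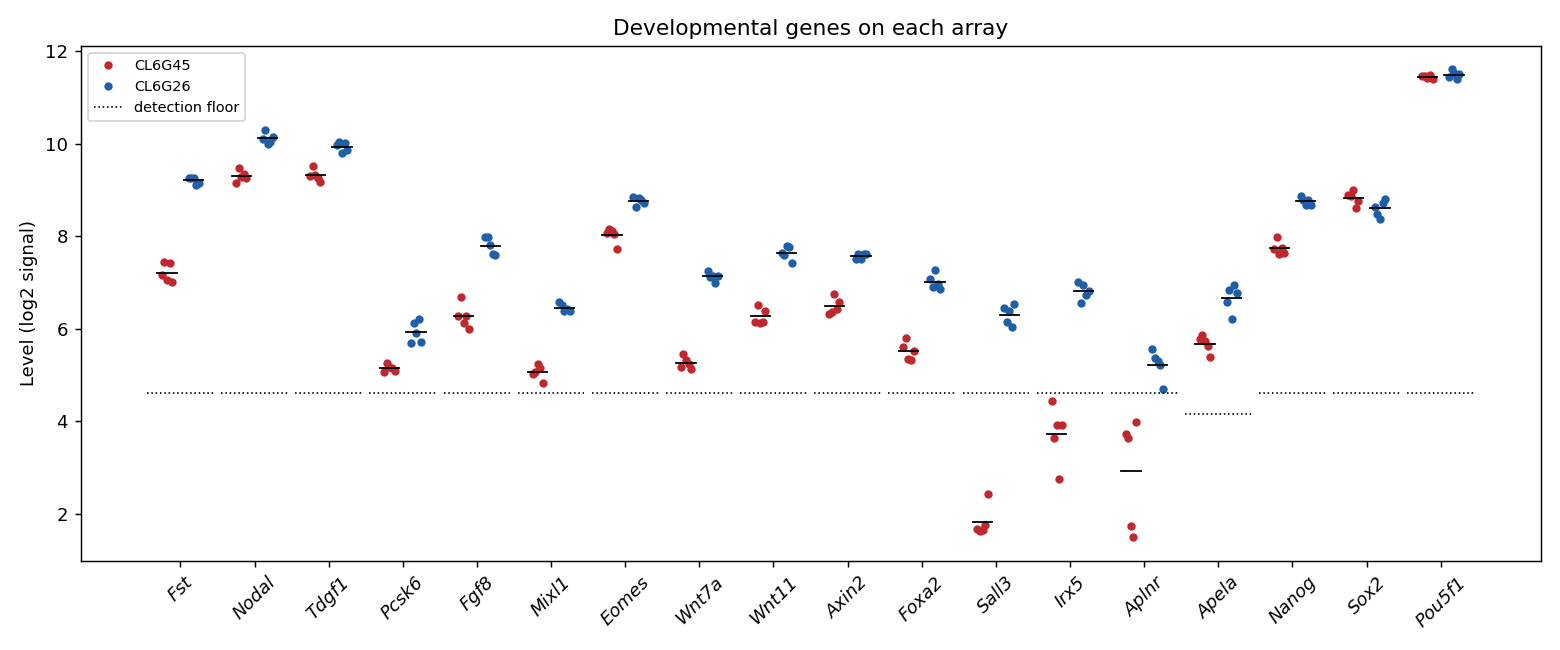
Levels (log2 signal) of 18 developmental and pluripotency genes on each array of CL6G45 (red) and CL6G26 (blue), with means as bars and the detection floor dotted. The groups do not overlap for any gene shown except Sox2 and Pou5f1, and Sall3, Irx5 and Aplnr lie under the floor on every CL6G45 array.

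Part of the primitive endoderm markers fell in CL6G45, and basement membrane genes went both ways. Of 13 primitive endoderm markers tested, 5 fell and 1 rose, against 9.10% and 10.9% of all genes. Foxa2, a forkhead factor of endoderm and node, was 5.60, 5.79, 5.34, 5.33 and 5.51 in CL6G45, against 7.07, 6.91, 7.28, 6.97 and 6.87 in CL6G26 (-1.50 ± 0.11, limma adjusted p = 4.97e-07). Pth1r, a parathyroid hormone receptor, was at least 1.22-fold lower but did not pass with signals raised to the floor (-0.28), and Lamb1, a laminin chain, fell by 0.54. Col4a1 and Col4a2, the collagen IV chains encoded side by side, fell together, by 1.03 ± 0.08 and 1.29 ± 0.17. Gata4 (-0.92, limma adjusted p = 0.131, or -0.26 with signals raised to the floor), Gata6 (-0.34, limma adjusted p = 0.198), Hnf4a (0.12) and Dab2 (0.04) did not pass, and Fabp3 was the member that rose, by 0.37. The summed signal of the 20 markers on the array was 2186 to 2454 on CL6G45 arrays and 2527 to 2993 on CL6G26 arrays, with Afp, Apoa1, Cubn, Sox7 and Ttr under the floor on all 10 arrays. Col4a1, Col4a2 and Foxa2, which fell, are among these markers, and their part in the sums was not separated. Fewer cells of a type and less RNA per cell cannot be told apart in these bulk samples, and the part of such cells in the lower developmental genes was not tested. Of 18 basement membrane and matrix genes 5 rose and 5 fell, or 1 and 3 with the deposited scaling, and the risers included collagen-modifying enzymes and chaperones: P4ha2, P4ha1 and Serpinh1 (0.64), which also respond to hypoxia or ER load. Col4a1, Col4a2 and Lamb1 count among the falls of both this list and the endoderm list.

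Of Pou5f1, Sox2, Lin28a and Nanog, core pluripotency factors, Nanog alone passed the test. Pou5f1 (Oct4) was 11.47, 11.47, 11.43, 11.48 and 11.40 in CL6G45, against 11.44, 11.61, 11.53, 11.40 and 11.50 in CL6G26, a difference of -0.04 ± 0.04 (limma adjusted p = 0.512). Sox2 differed by 0.22 ± 0.09 (limma adjusted p = 0.0857, but 0.037 without CL6G45 replicate 4 and 0.0444 without CL6G26 replicate 5) and Lin28a by 0.04. Nanog was at 7.71, 7.99, 7.62, 7.75 and 7.64 in CL6G45, against 8.87, 8.77, 8.67, 8.78 and 8.68 in CL6G26, a difference of -1.01 ± 0.08 (limma adjusted p = 5.06e-07). Of 12 shared pluripotency genes 3 rose and 2 fell, with Utf1, a chromatin factor, at 0.56 as the largest riser. The rises numbered 1 with equal medians, 0 with the deposited scaling and 1 without the pair of arrays that lay apart, and the falls 3, 2 and 2. The pluripotency and epiblast counts of the main fit stand beside 10.9% of all genes that rose and 9.10% that fell. Of 5 naive pluripotency genes tested 1 passed, Tbx3 (-0.81, or -0.53 with signals raised to the floor), which did not pass without the pair of arrays that lay apart (limma adjusted p = 0.154), and Esrrb (0.04) and Klf5 (0.68) did not. Of 12 primed epiblast genes 7 rose and 1 fell, led by Pou3f1 (0.73), a neural-biased POU factor, and the DNA methyltransferase Dnmt3a (0.54). With equal medians only 2 rose and 3 fell, and with the deposited scaling 0 rose and 1 fell. The cardiac regulator Nkx2-5 differed by 0.11 ± 0.16 (limma adjusted p = 0.679).

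Receptor, Notch and retinoid genes went both ways. The counts here stand beside 10.9% of all genes tested that rose and 9.10% that fell. Ret, the GDNF receptor kinase, was 5.73, 5.62, 5.55, 5.90 and 5.53 in CL6G45, against 7.16, 7.03, 6.96, 7.12 and 6.92 in CL6G26 (-1.37 ± 0.10, limma adjusted p = 3.09e-07), and its P19CL6 level of 5.35 was that of CL6G45. Among Eph receptors, Epha1 fell by 1.52 ± 0.10 (limma adjusted p = 1.37e-07), Epha2 by 0.81 and the ligand Efnb2 by 1.05 (0.87 with signals raised to the floor). In the list of receptors and ligands that holds Ret, 3 of 15 rose and 3 fell, or 1 and 3 with the deposited scaling. In the Notch list of 15 genes 3 rose and 2 fell, or 2 and 0 with the deposited scaling. Lfng (1.22), which glycosylates Notch, and the ligand Dll3 (0.77) rose, whereas the target genes Hes5 and Hes1 fell by 0.67 and 0.47. In the retinoid list of 12, 2 rose and 4 fell, or 0 and 2 with the deposited scaling. Cyp26a1, which degrades retinoic acid, fell by 0.92 (-0.73 with signals raised to the floor), the carrier Crabp2 by 0.60 and the synthetic enzyme Rdh10 by 0.43. Meis2 was the other member that fell. Of the epithelial genes 6 of 17 rose and 3 fell, or 3 and 3 with equal medians and 2 and 0 with the deposited scaling, with Esrp1, a splicing regulator under the floor on every CL6G26 array, at least 1.71-fold higher (limma adjusted p = 0.000276).

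Mest and its neighbours differed in opposite directions. Mest, a maternally imprinted hydrolase gene, was 9.35, 9.21, 9.35, 9.50 and 9.43 in CL6G45, against 10.89, 10.93, 10.90, 10.91 and 10.94 in CL6G26, a difference of -1.54 ± 0.05 with the smallest adjusted p of all genes called (limma adjusted p = 3.77e-10). Its neighbour Cep41 was 7.23, 7.19, 7.12, 7.25 and 7.26 in CL6G45, against 5.67, 5.41, 4.93, 5.77 and 6.04 in CL6G26 (1.65 ± 0.16, limma adjusted p = 5.52e-06), and the neighbour Copg2 rose by 0.44. P19CL6 stood at 9.86 ± 0.10 for Mest and 7.29 ± 0.17 for Cep41 (SD, n = 5), so that Cep41 was low in CL6G26 alone of the 3 strains. Of 22 imprinted genes tested 6 rose and 3 fell, or 4 and 5 with equal medians and 1 and 1 with the deposited scaling. The shares over all genes tested were 10.9% and 9.10%. Chromosome 6, which holds Mest, Cep41 and Copg2 and also Nanog, Ret, Epha1, Wnt7a and Wnt5b, had the largest share of called genes of any chromosome, 2.65% with 5 higher and 10 lower, but its median difference was 0.01, and over all chromosomes the medians ran from -0.01 to 0.05.

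Growth and proteostasis genes mostly shifted by small amounts, and the members called were Plk2 and Bbc3 of the p53 list. Of 29 cell cycle genes 9 fell and 3 rose, with Mad2l1, a spindle checkpoint protein (-0.51), cyclin E1 (Ccne1, -0.50) and Bub1b (-0.38) lower and the inhibitor Cdkn1b (p27) higher by 0.53. Another inhibitor, Cdkn1a (p21), counts among the falls of this list and of the p53 list. Of 18 p53 targets 7 fell, including Plk2 (-1.07), Cdkn1a (p21, -0.46) and Phlda3 (-0.45), and 3 rose, the pro-apoptotic Bbc3 (1.13), Sesn2 (0.73) and Sesn1 (0.30), where Bbc3 and Sesn2 are also targets of CHOP and ATF4. Of 19 heat shock genes 6 fell, led by Hsph1 (-0.72) and Ahsa1 (-0.56), both partners of cytosolic chaperones, and 2 rose, Hspa4l (0.54) and the mitochondrial chaperone Hspa9 (0.47). Of 31 oxidative phosphorylation genes 8 fell and 2 rose, with a median of -0.01. All 4 lists stand beside 9.10% of all genes tested that fell and 10.9% that rose. Under the deposited scaling the counts of falling genes in these lists were 2, 1, 3 and 4, and with equal medians 11, 8, 8 and 15. The counts of rising genes were 0, 2, 0 and 0 under the deposited scaling and 1, 2, 2 and 0 with equal medians.

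**Figure D5:**
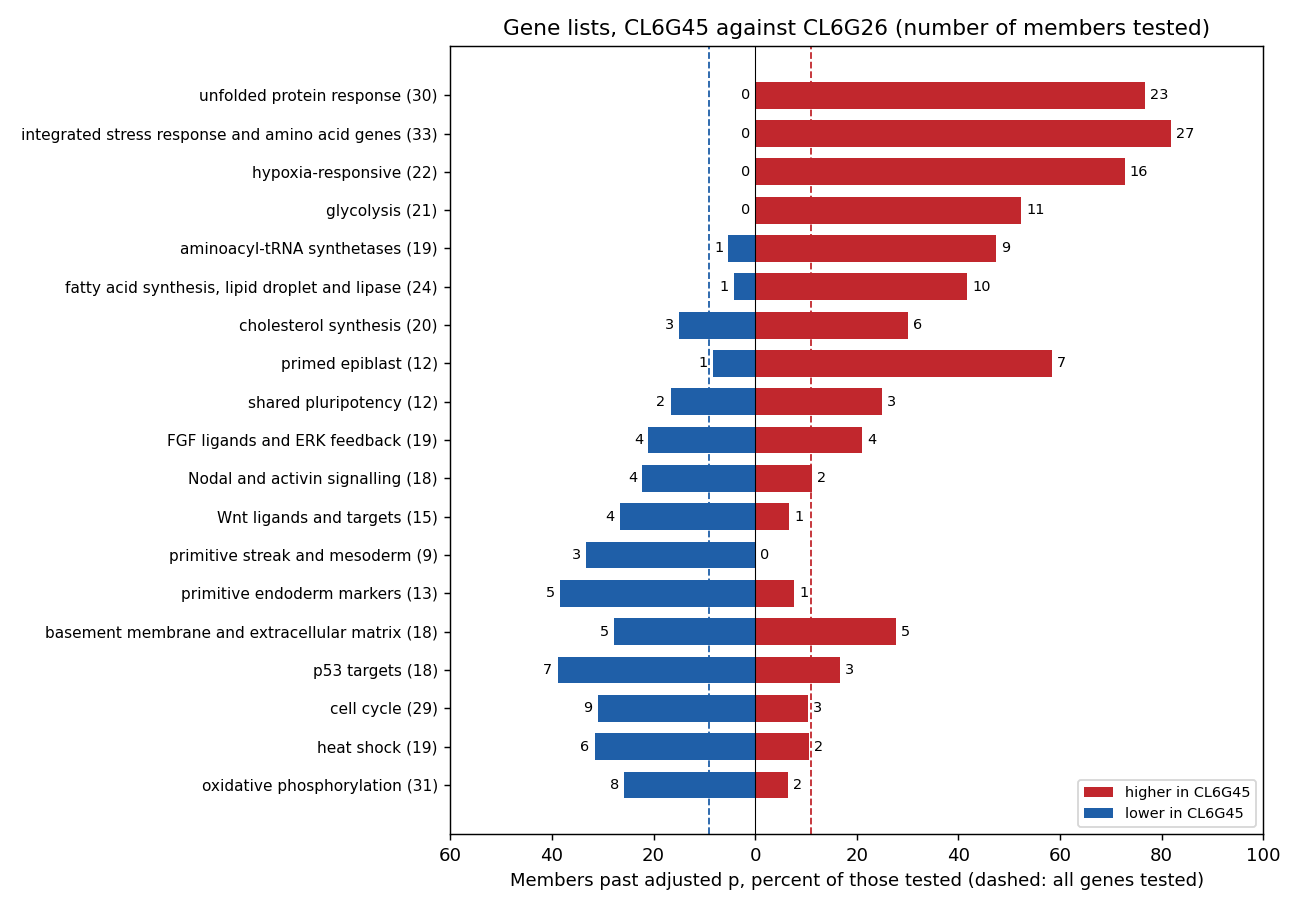
Share of the tested members of 19 gene lists that passed an adjusted p of 0.05, higher in CL6G45 to the right (red) and lower to the left (blue), with the number of members beside each bar and the shares over all genes tested (10.9% and 9.10%) as dashed lines. The stress, hypoxia and glycolysis lists have 0 members on the left.

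Further genes with large changes had varied roles. Depdc5, a subunit of the GATOR1 complex that restrains mTORC1, rose by 1.85 ± 0.11 (limma adjusted p = 5.5e-08), with 1 of its 4 other probe sets at -0.09. Calcr, the calcitonin receptor, rose by 1.42, Lrrc61 by 1.34 and Xrcc5, the Ku80 subunit of DNA end joining, by 1.27. Spon1, an extracellular matrix protein, was 6.80, 6.64, 6.42, 6.71 and 6.42 in CL6G45 and under the floor in CL6G26, at least 3.96-fold higher (limma adjusted p = 5.25e-08). Its other probe sets were above the floor on 0 arrays of either subline, with CL6G45 means of 4.39, 3.03 and 1.17 against 3.41, 2.34 and 1.39 in CL6G26. Trim66, at least 2.52-fold, Tmem45a, at least 1.95-fold, and Gstm5, a glutathione transferase, at least 1.72-fold higher, were like Spon1 detected in CL6G45 alone of the pair. Cacna2d2, a calcium channel subunit, Cyba, a subunit of NADPH oxidase, and Slc35d3, named after their values were seen, had differences of 3.22, 2.65 and 2.27 with part of the CL6G26 arrays under the floor, and 2.99, 2.40 and 2.05 with signals raised to it.

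On the lower side, Greb1, known as an oestrogen-responsive gene, was 4.31, 4.18, 4.19, 4.20 and 4.37 in CL6G45, all under the floor, against 7.10, 7.28, 6.90, 7.04 and 6.99 in CL6G26, at least 5.46-fold lower by this probe set (limma adjusted p = 1.57e-09). A MOE430B probe set of Greb1 was above the floor on all 10 arrays, with means of 5.58 in CL6G45 and 8.82 in CL6G26, and differed by -3.24 ± 0.11 (limma adjusted p = 3.3e-11), so Greb1 was detected in CL6G45 at a low level. P19CL6 (4.26) and CL6G36 (4.17) also averaged under the floor of the MOE430A probe set. Upp1, uridine phosphorylase, fell by 1.66 ± 0.12, Rab38, a small GTPase, by 1.49 ± 0.16, and Chst15, a sulfotransferase, by 1.42 ± 0.18. Wsb1 and H6pd, which makes NADPH in the ER, were detected in CL6G26 alone of the pair, at least 1.69-fold and 1.63-fold lower in CL6G45. Dhx38, a splicing helicase, was at least 2.04-fold lower by one probe set, but a second was above the floor on 3 CL6G45 and 2 CL6G26 arrays and gave 0.10 (limma adjusted p = 0.908). Rtl8c and Cabp7, named after their values were seen, were lower by 1.31 and 1.88 with signals raised to the floor.

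P19CL6, from which both sublines derive, lay nearer CL6G26 for most called genes. Scaling each gene from its CL6G26 level (0) to its CL6G45 level (1), P19CL6 lay under 0.25 for 85 of 142 genes, over 0.75 for 17 and between for 40, whereas CL6G36 lay under 0.25 for 24 and over 0.75 for 71. CL6G52 was divided, with 44 genes under 0.25, 44 over 0.75 and 54 between. All CL6G52 positions rest on means that include replicate 1, which stood apart from its group for some genes. Of the 75 genes higher in CL6G45, P19CL6 was near the CL6G26 end for 41 and at the CL6G45 end for 11. Of the 67 lower genes it was at the CL6G26 end for 44 and at the CL6G45 end for 6. These counts describe genes picked on the same CL6G26 and CL6G45 arrays and carry no test. Of the 9 called members of the unfolded protein and integrated stress lists, P19CL6 and CL6G52 each lay under 0.25 for 8 and CL6G36 over 0.75 for 8. Ddit3 averaged 5.35 in P19CL6, 8.62 in CL6G36 and 5.13 in CL6G52, where replicate 1 stood apart at 8.01, and Derl3 averaged 5.72, 8.25 and 5.52 in the same strains. Stc2 lay between in P19CL6, at 8.13. Fgf8 averaged 8.05 in P19CL6, 6.07 in CL6G36 and 5.98 in CL6G52, Mixl1 6.83, 4.21 and 5.27, and Nanog 8.76, 7.66 and 8.11.

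Of 18 neural markers 7 lay under the floor on all 10 arrays, among them Sox1, Pax6 and Olig2, and their summed signal was 1425 to 1572 on CL6G45 arrays and 1721 to 1913 on CL6G26 arrays. That order rested on Nefl, a neurofilament gene, at 274 to 399 in CL6G45 and 725 to 872 in CL6G26, and the sum of the other 17 was 1118 to 1233 in CL6G45 and 987 to 1041 in CL6G26. Of the 8 neural markers tested 1 rose and 1 fell, against 10.9% and 9.10% of all genes, with a median difference of -0.05. For 15 trophoblast markers the sums were 680 to 799 in CL6G45 and 995 to 1052 in CL6G26, with 6 never above the floor, among them Elf5 and Krt7. Of the 7 trophoblast markers tested 1 rose and 2 fell, to be read against the same shares of all genes. Eomes, the brightest trophoblast marker at a mean level of 8.39, differed by -0.74, and its part in the sums was not separated. For 16 fibroblast markers the sums were 478 to 538 in CL6G45 and 520 to 594 in CL6G26, with 10 never above the floor, among them Col1a1, Col3a1 and Dcn. Blood and endothelial markers summed to 206 to 237 and 292 to 359 in CL6G45, against 190 to 215 and 340 to 382 in CL6G26, and Ptprc, Pecam1 and Cdh5 lay under the floor on all 10 arrays.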

How the data were processed

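Transcripts of undifferentiated CL6G45 and CL6G26 cells were measured on MOE430A and MOE430B arrays, 5 per subline and type. The deposited values are linear signal intensities from GCOS, per the submitters' processing notes (no version); the scan images were not used here. Both tables were processed alike. Signals under 1 were set to 1, quantile normalized over the 30 arrays of a type and taken to log2. Testing was limited to probe sets that exceeded a floor, the 40th percentile of MOE430A or the 60th of MOE430B, on at least 5 of the 10 arrays. limma 3.58.1 in R 4.3.3 was fitted to those 10 arrays, with a trended eBayes and Benjamini-Hochberg adjustment per array type, checked on simulated data. Called genes had a 2-fold or larger change and an adjusted p below 0.05. Its value is that of its brightest tested probe set with 1 symbol (MOE430A before MOE430B), named by the platform annotation. Of 22690 MOE430A probe sets 20380 had 1 symbol, 691 several and 1555 none, and of 22575 on MOE430B these were 14661, 245 and 7605. A gene above the floor on 0 arrays of one subline and on 5 of the other by that probe set has a lower bound, the mean of the detected subline over the floor. "Raised to the floor" means that signals below the floor were set to it.

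Named genes are Fst, Snx7 and Arhgap32, the 12 largest called differences each way among genes detected on all 10 arrays, the 6 largest bounds each way, up to 5 members per list with the largest change past the adjusted p and 3 chosen by role that did not pass, and 7 fixed regulators. The members and lists were chosen with earlier results of these data known. Promoter windows are from RefSeq (GRCm38.p6). Alternatives were the scaling, floor, added constant, filter, model, probe set rule, replicate block and leaving out each array. Dropping the 2 arrays that lay apart, with the filter at 5 or at 4 of the 8 left, was added after seeing the data.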

Additional observations from a re-analysis of the deposited data

Results flagged for a closer look

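In 26 of 352 groups of 5 arrays screened over the named genes, 1 array lay far from the other 4, its gap to the nearest being over 0.71 of the group's range. Chance alone sets apart about 1 in 20 groups. The values are levels (log2 signal), each with the nearest of the other arrays after it. In CL6G45 replicate 1, Lef1 was lowest at 4.54, next to 5.16, and Ccne1 was lowest at 7.59, next to 7.73. In CL6G45 replicate 2, Myc was highest at 8.30, next to 7.97, Dnmt3a was lowest at 8.82, next to 9.07, and Copg2 was highest at 7.97, next to 7.78. In CL6G45 replicate 3, Depdc5 was highest at 8.42, next to 8.28, and Chst15 was highest at 6.31, next to 5.36. In CL6G45 replicate 4, Gata4 was lowest at 2.16, next to 4.14, and Gsc was highest at 5.96, next to 5.71. In CL6G45 replicate 5, Sall3 was highest at 2.42, next to 1.76, Pfkp was highest at 7.71, next to 7.30, and Eomes was lowest at 7.72, next to 8.05. In CL6G26 replicate 1, Herpud1 was highest at 8.17, next to 7.47, and Plk2 was highest at 6.46, next to 5.86. In CL6G26 replicate 2, Smad2 was highest at 7.49, next to 7.10, Lin28a was highest at 10.94, next to 10.86, and Vps35 was lowest at 9.21, next to 9.61. In CL6G26 replicate 3, Stc2 was highest at 7.93, next to 7.67, Farsa was highest at 8.55, next to 8.37, Ankrd37 was lowest at 5.92, next to 6.27, Foxh1 was highest at 8.83, next to 8.60, and Mad2l1 was lowest at 8.84, next to 9.02. In CL6G26 replicate 4, Arhgap35 was lowest at 7.0, next to 7.27. In CL6G26 replicate 5, Ddit3 was lowest at 4.72, next to 5.64, Tmem45a was highest at 3.08, next to 2.17, and Slc35d3 was highest at 4.67, next to 4.0.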

How the results depend on the processing

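With the deposited scaling the genes past the adjusted p numbered 714, against 2341 as reported, and 49 of 178 named differences no longer passed; Smad4 turned to -0.01 there, and the cause was not tested. Called genes numbered 73 with 16 added to every signal, which shrinks the folds of dim genes, 223 with no filter on low signals, which tests more genes, and 74 with a stricter filter, which tests fewer, against 142 as reported. Leaving out 1 array gave 122 to 138 genes called, 50 to 81 of them higher, and 1936 to 2262 past the adjusted p. Without CL6G45 replicate 4 and CL6G26 replicate 3 together, 115 were called; of the 26 genes detected in 1 subline 5 were then tested, by other probe sets, since the probe sets used had 4 arrays left above the floor and the filter needs 5. With the filter at 4 of the 8 arrays left, 145 were called, 23 of the 26 among them. In that fit Dusp4 (limma adjusted p = 0.0586), Pan2 (0.0516), Cdkn1a (0.0526) and Sesn1 (0.0763) missed the threshold. Crabp2 (limma adjusted p = 0.101), Meis3 (0.104), Smad4 (0.143) and Tbx3 (0.154) missed it too, and Lefty1 (0.0143) passed. Leaving out 1 array of the subline that alone detects a gene likewise removes that gene from the test. The remaining alternatives run kept both counts within 1.5 times. Some small differences passed or missed the threshold by which array was left out. Smad4 missed it in 9 of these 10 fits (all but without CL6G26 replicate 2; limma adjusted p up to 0.103), and Tbx3 in 7 (all but without CL6G45 replicates 2 and 5 and CL6G26 replicate 5; up to 0.0893). Crabp2 (up to 0.0688) missed it without CL6G45 replicates 1, 4 or 5 or CL6G26 replicates 1, 2 or 3, Cdkn1a (up to 0.106) without CL6G45 replicates 1, 3, 4 or 5 or CL6G26 replicates 1 or 2, and Rdh10 (up to 0.0783) without CL6G45 replicates 1 or 5 or CL6G26 replicates 3, 4 or 5. Vps35 (up to 0.0753) missed it without CL6G45 replicates 1, 2, 3 or 5 or CL6G26 replicate 2, Snx18 (up to 0.0732) without CL6G45 replicates 1 or 3 or CL6G26 replicates 1 or 5, and Atf6 (up to 0.0567) without CL6G45 replicates 3 or 5 or CL6G26 replicate 4. Cyp26a1 missed it without replicate 1 of CL6G45 (0.0554) or CL6G26 (0.0505), Sesn1 without CL6G45 replicate 3 (0.0648) or CL6G26 replicate 2 (0.0544), and Meis3 without CL6G26 replicates 2 (0.0654) or 5 (0.073). Conversely Atf3 passed without replicate 1 of CL6G45 (0.0137) or CL6G26 (0.0258), Sox2 without CL6G45 replicate 4 (0.037) or CL6G26 replicate 5 (0.0444), Klf5 without CL6G26 replicates 4 (0.0199) or 5 (0.0432), and Hsp90b1 without CL6G45 replicate 4 (0.0376) or CL6G26 replicates 1 (0.0498) or 4 (0.0486). Lef1 passed without CL6G45 replicate 1 (0.0301), Smad2 without CL6G26 replicate 2 (0.0383) and Lefty1 without CL6G26 replicate 3 (0.0124). Replicate numbers did not pair the samples: same-numbered arrays had deviations correlated at -0.063 to 0.027, and replicate 3 on MOE430A alone correlated best with its own number. The fit with a replicate block called 141 genes, with 2015 past the adjusted p. Signals near the floor limit the folds of genes detected in 1 subline.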
